A study of Mus musculus with 8 samples.

Results

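Transcripts of 8 marker genes of the fibroblasts that line and enter the brain with its coverings were followed in RNA sequencing of mouse prefrontal cortex. They were taken by symbol, with collagens and laminins left aside: Igf2, Igfbp2, Aldh1a2, Slc6a13, Slc22a6, Dcn, Lum and Ogn. All 8 were found among the 23393 named genes of the files, and all 8 were among the 17415 genes with enough counts to be tested. The samples were bulk tissue lysates from C57BL6/J mice, given in the series text as 6 to 8 weeks old, and all had received the adeno-associated virus AAV9. There were 4 groups of 2 libraries. The library titles name a hairpin group for Adnp (shAdnp) with its own virus controls expressing green fluorescent protein (GFP), called the Adnp-set controls here, and a hairpin group for Pogz (shPogz) with a separate pair of GFP controls, called the Pogz-set controls. The treatment label of both hairpin groups instead names a hairpin against ASH1L, so the group names follow the titles. The promoter driving the hairpins and the cells that took up the virus were not given in the sources used here. The labels call the samples biological duplicates. The p-values below weigh differences between groups against the spread between such libraries, pooled over all 4 groups.

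Meningeal fibroblasts build the pia and arachnoid and follow penetrating vessels into the cortex in the perivascular space. They secrete growth factors and matrix proteins, carry transporters that exchange solutes with the cerebrospinal fluid, and make retinoic acid from retinaldehyde. In dissected cortex they are a small minority of the cells, and how much of the pia stays on the tissue depends on the dissection. In bulk tissue a lower marker level from fewer cells and one from less RNA per cell cannot be told apart, and likewise for a higher level.

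The stretches of DNA just upstream of the starts of the 6 markers with an entry in the RefSeq promoter table are shown because these genes are used together as markers of 1 cell type, yet their promoters differ in make-up. They come from RefSeq, build GRCm38.p6, and run 5′ to 3′ on the gene's own strand, without bases annotated as exon. For each gene 1 stretch is shown, though Igf2, Igfbp2 and Slc6a13 have further windows there that are not printed. Capitals mark matches to 6 short motifs, each searched on both strands in the whole 250 bases before a start. These were the TATA box (TATAAA), the CCAAT box (CCAAT), the GC box (GGGCGG), the E-box (CANNTG), a forkhead motif (TAAACA) and a TEAD motif (GGAATG).
Igf2 (chr7:142657497-142657596, minus strand): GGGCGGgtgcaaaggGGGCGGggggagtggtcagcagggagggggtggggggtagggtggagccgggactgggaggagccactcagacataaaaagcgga
Igfbp2 (chr1:72824380-72824479, plus strand): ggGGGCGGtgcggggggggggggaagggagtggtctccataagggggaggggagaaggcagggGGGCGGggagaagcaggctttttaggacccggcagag
Aldh1a2 (chr9:71215689-71215788, plus strand): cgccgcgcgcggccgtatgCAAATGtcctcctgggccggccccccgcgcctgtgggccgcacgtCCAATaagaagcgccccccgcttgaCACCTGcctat
Slc6a13 (chr6:121300188-121300226, plus strand): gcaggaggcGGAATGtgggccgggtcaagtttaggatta
Slc22a6 (chr19:8617896-8617995, plus strand): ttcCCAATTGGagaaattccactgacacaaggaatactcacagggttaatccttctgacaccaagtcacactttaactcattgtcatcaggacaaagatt
Ogn (chr13:49607915-49608014, plus strand): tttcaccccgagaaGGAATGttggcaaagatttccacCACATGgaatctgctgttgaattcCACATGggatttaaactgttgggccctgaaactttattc
The GC box, shown in the Igf2 and Igfbp2 stretches, lay in the windows of 3 of the 6 genes and in 32.7% of all 32841 windows of the table. The Igf2 stretch shown is from window 4 of that gene and lies within the gene's span. Igf2 windows 1 and 2, nearest its 5′ end, had 50.8% and 47.6% G and C and no GC box. The CCAAT box lay in windows of 4 of the 6, against 33.9% of all windows. A TEAD motif, shown for Slc6a13 and Ogn, lay in windows of 4 of the 6 genes, and in 6 of their 12 windows, against 12.6% of all windows. E-boxes lay in windows of 6 of the 6 genes, in 8 of 12 windows, and in 66.2% of all windows. The TATA box and the forkhead motif each lay in 1 of the 12 windows, against 12.4% and 12% of all windows. The CCAAT box and the E-box overlap in Slc22a6. Genes with several windows have more chances of a match than a single window, so the shares of genes and of windows are not on the same footing. In base composition the windows ran from 42% G and C in Ogn to 77.6% in Aldh1a2, around a median of 52.4% over all windows.

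The libraries held 27501722 to 69002749 counts in named genes. Adnp was not detectably lower in shAdnp (log2 fold change -0.27, SE 0.19, edgeR adjusted p = 0.768), nor was Pogz in shPogz (-0.32, SE 0.16, edgeR adjusted p = 0.667). Ash1l stood at -0.10 in shAdnp and 0.11 in shPogz. Multidimensional scaling placed the libraries by the genes that differed most between each pair, not by all genes. Its first scaling axis held 52.3% of the variation in those distances. On that axis replicate 1 of the Adnp-set controls lay at one end (-2.47) and replicate 2 of shPogz at the other (2.15). The other 6 libraries lay between -0.66 and 0.80. In shAdnp replicate 1 the ribosomal RNA precursor Rn45s took 7.62% of the counts, against 0.134% to 0.740% in the others.

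The markers were present at low to moderate levels. In CPM, a gene's counts scaled to the size of its library, divided by the gene's exon length, Igfbp2, a secreted protein that binds insulin-like growth factors, had the highest level at a mean of 20.6 CPM per kilobase over the 8 libraries (13.7 to 35.7). Dcn followed at 4.65 (2.26 to 7.90), then Igf2 at 4.27 (2.51 to 6.53), Slc6a13 at 3.85 (2.37 to 5.63), Ogn at 3.61 (1.76 to 7.38) and Aldh1a2 at 3.5 (2.70 to 5.72). Lum (1.95, 0.949 to 3.38) and Slc22a6 (1.46, 0.677 to 2.66) were lowest. Igfbp2 lay above every other marker in every library, and the ranges of neighbours in the order from Dcn down to Slc22a6 overlapped. In raw counts the smallest value of any marker in any library was 103, for Slc22a6 in shPogz replicate 2. Ogn had the widest spread, its highest library standing at 4.18 times its lowest, and Aldh1a2 the narrowest at 2.12 times.

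**Figure D1:**
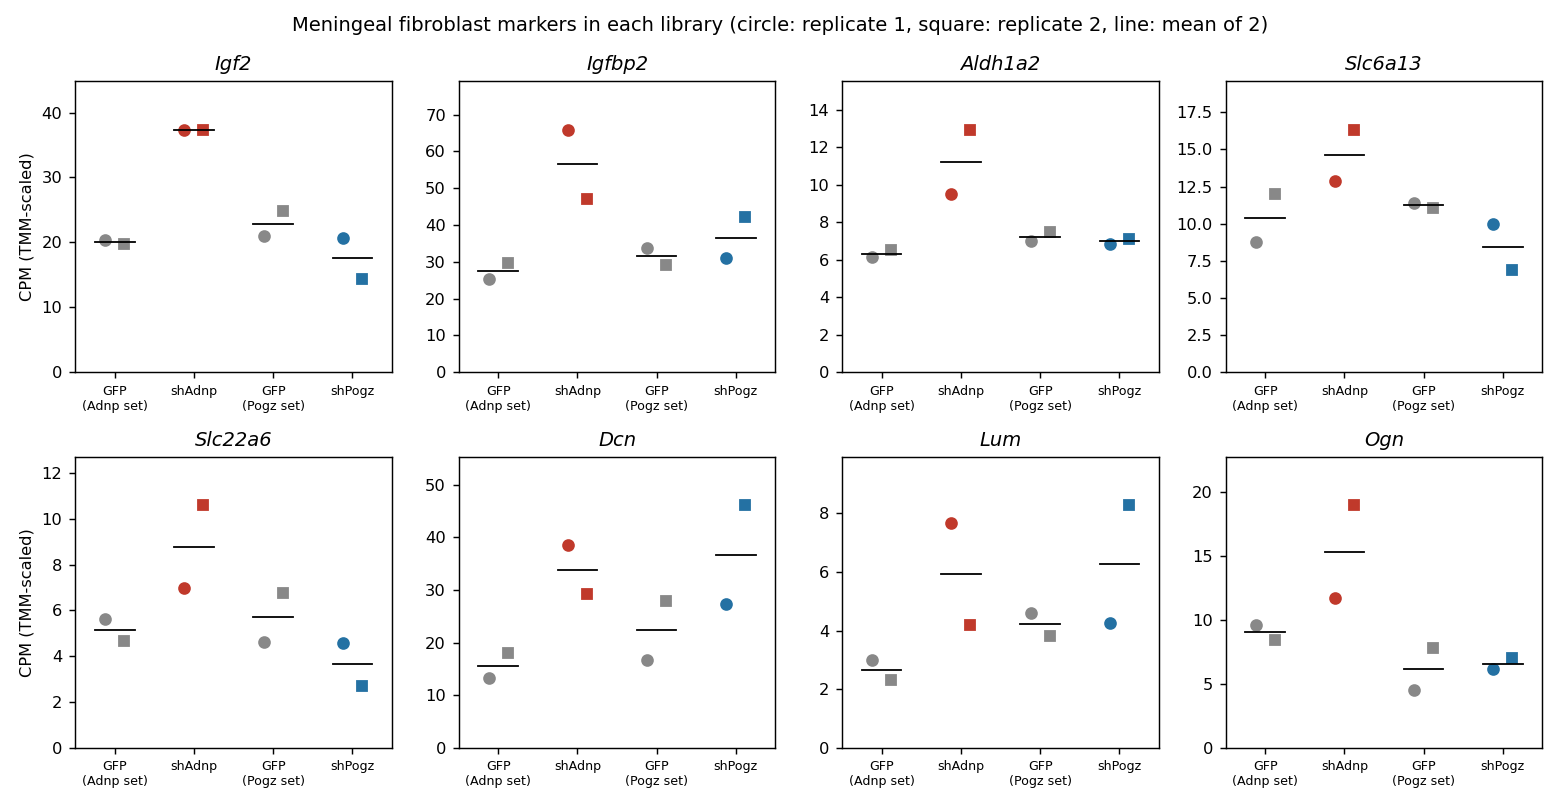
Level of each of the 8 markers in every library, in TMM-scaled CPM on axes that start at 0, with a circle for replicate 1, a square for replicate 2 and a line at the mean of the 2. In every panel both shAdnp points lie above both Adnp-set GFP points, while the shPogz points lie below both of their own controls for Igf2, Slc6a13 and Slc22a6 and overlap with them for the other 5.

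All 8 markers stood higher in both shAdnp libraries than in both of their GFP controls, by 1.41-fold to 2.22-fold. The insulin-like growth factor genes, the retinoic acid enzyme and the proteoglycans shared that direction. No marker passed the test after adjustment over all genes. Each is described below by what its protein does.

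Igf2 (chr7:142650766-142666816, minus strand, mm10) encodes insulin-like growth factor 2, which meninges and choroid plexus release into the cerebrospinal fluid. It was the most even of the markers within shAdnp: its libraries read 37.3 and 37.4 CPM, against 20.4 and 19.7 in the controls. The log2 fold change was 0.90 (SE 0.17, 95% interval 0.52 to 1.28) or 1.86-fold, with an edgeR adjusted p of 0.295. Its unadjusted p was the 17th smallest of all 17415 genes. Igf2 overlaps Gm49394 and Mir483 on its own strand and Igf2os on the other, and the strand setting of the counting was not given in the sources used here.

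Igfbp2 (chr1:72824503-72852474, plus strand) read 66.0 and 47.1 CPM in shAdnp against 25.3 and 29.5 in its controls. Both hairpin libraries were high and replicate 1 was the higher. Its log2 fold change was 1.04 (SE 0.20, 95% interval 0.59 to 1.5), with an edgeR adjusted p of 0.295.

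Aldh1a2 (chr9:71215789-71296243, plus strand) encodes a retinaldehyde dehydrogenase, the enzyme of the last step of retinoic acid synthesis. Its levels were 9.47 and 12.9 CPM in shAdnp and 6.12 and 6.51 in the controls, so the groups did not overlap and the hairpin libraries were further apart than the controls. The log2 fold change was 0.83 (SE 0.18, 95% interval 0.41 to 1.24), with an edgeR adjusted p of 0.295.

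Of the transporters, Slc6a13 (chr6:121300227-121337733, plus strand), which takes up GABA and taurine, stood at 12.9 and 16.3 CPM in shAdnp against 8.80 and 12 in the controls. The lower hairpin library stood just over the higher control. Its log2 fold change of 0.49 (SE 0.22, 95% interval -0.0018 to 0.99) was the smallest of the 8, with an edgeR adjusted p of 0.600. It was 0.30 without replicate 1 of the Adnp-set controls, 0.32 without shAdnp replicate 2, and as high as 0.73 without replicate 2 of the controls. Slc22a6 (chr19:8618039-8628299, plus strand), an organic anion transporter best known from the kidney, had 6.97 and 10.6 CPM against 5.62 and 4.65. The log2 fold change was 0.77 (SE 0.31, 95% interval 0.07 to 1.48), with an edgeR adjusted p of 0.532, and the value was 0.45 without shAdnp replicate 2.

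The remaining markers encode small leucine-rich proteoglycans, extracellular proteins that bind collagen and set the width of its fibrils. Dcn (decorin, chr10:97479609-97518143, plus strand) stood at 38.6 and 29.2 CPM in shAdnp and at 13.2 and 18.1 in the controls, a log2 difference of 1.12 (SE 0.35, edgeR adjusted p = 0.415). Lum (lumican, chr10:97565128-97572703, plus strand), on the same chromosome, stood at 7.68 and 4.18 CPM against 3.01 and 2.32. Its log2 fold change, 1.15 (SE 0.38, edgeR adjusted p = 0.405), was the largest of the 8, and was 0.66 without shAdnp replicate 1 and 1.53 without replicate 2. Ogn (osteoglycin, also called mimecan, chr13:49608046-49624501, plus strand) stood at 11.7 and 18.9 CPM against 9.61 and 8.39, a log2 difference of 0.76 (SE 0.29, edgeR adjusted p = 0.503) that was 0.38 without shAdnp replicate 2. Ogn lies within Cenpp on the opposite strand, so its reads may not be separable from that gene's.

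By edgeR, 0 of the 8 markers and 0 of all 17415 genes (0%) passed an adjusted p of 0.05 in shAdnp. At an unadjusted p under 0.05, 7 of the 8 were higher, all but Slc6a13, where 6.67% of all genes were higher. That count was 4 without replicate 1 of the Adnp-set controls and 5 to 8 without any other single library. None of the 8 was lower, against 1.69% of all genes. The 2 groups did not overlap for 8 of 8 markers, each higher, while 20.4% of all genes had both shAdnp libraries above both controls. The median log2 fold change was 0.86 over the markers and -0.01 over all genes. DESeq2, run as an alternative, passed 413 genes (2.37%) as higher and 4 markers with them: Igf2 (adjusted p = 0.000448), Igfbp2 (0.000174), Aldh1a2 (0.0121) and Dcn (0.00633). limma-voom passed 0 markers and 0 of all genes. The markers and the gene lists below were chosen with earlier results of these data known, so these counts describe the markers and are no independent evidence.

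The shPogz libraries gave no shared direction. Of the 8 markers, 4 had a log2 fold change above 0 and 4 below, where 46.4% of all genes were above 0. The median was 0.0076 over the markers and -0.02 over all genes. By edgeR, 0 of 8 markers and 0% of all genes passed an adjusted p of 0.05, DESeq2 passed 0 markers and 101 genes (0.58%), and limma-voom passed 0 of both. At an unadjusted p under 0.05, 1 marker was lower, Igf2, against 2.65% of all genes, and 0 were higher, against 4.05%. Without shPogz replicate 1 the count was 5, with Dcn and Lum higher and Igf2, Slc6a13 and Slc22a6 lower, and without shPogz replicate 2 it was 0.

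Igf2 and both transporters stood lower in both shPogz libraries than in both controls, a pattern that 21.3% of all genes shared. Igf2 read 20.7 and 14.4 CPM against 21.0 and 24.8, so the nearer pair of libraries were almost level. Its log2 fold change was -0.39 (SE 0.17, 95% interval -0.77 to -0.0037, edgeR adjusted p = 0.667), and it was -0.15 without shPogz replicate 2. Slc6a13 read 9.99 and 6.89 CPM against 11.4 and 11.1, a log2 difference of -0.41 (SE 0.22, edgeR adjusted p = 0.667). Slc22a6 read 4.59 and 2.70 CPM against 4.63 and 6.77, with a log2 difference of -0.65 (SE 0.32, edgeR adjusted p = 0.667). In all of these, replicate 2 of shPogz was the lowest of the 8 libraries, and replicate 1 lay closer to the controls. Without replicate 2 the values were -0.17 for Slc6a13 and -0.33 for Slc22a6. Without replicate 1 they were -0.67 and -1.05, and that of Igf2 was -0.64.

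The proteoglycans Dcn and Lum tended the other way in that same library. Dcn read 27.3 and 46.1 CPM in shPogz against 16.7 and 28.0 in the controls, with replicate 2 the highest of all 8 libraries and replicate 1 just under the higher control. The log2 fold change was 0.71 (SE 0.35, 95% interval -0.12 to 1.54, edgeR adjusted p = 0.667), and 0.28 without shPogz replicate 2 or 1.07 without replicate 1. Lum read 4.26 and 8.28 CPM against 4.60 and 3.82, a log2 difference of 0.58 (SE 0.38, edgeR adjusted p = 0.693) that was 0.02 without shPogz replicate 2 and 1.02 without replicate 1. Igfbp2 (30.9 and 42.1 against 33.8 and 29.0), Aldh1a2 (6.81 and 7.12 against 7 and 7.45) and Ogn (6.13 and 6.99 against 4.53 and 7.82) overlapped with their controls. Their 95% intervals on the log2 scale all included 0. They ran from -0.24 to 0.68 for Igfbp2, from -0.47 to 0.36 for Aldh1a2 and from -0.61 to 0.75 for Ogn. For each gene, changes within its own interval were not excluded by these libraries.

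**Figure D2:**
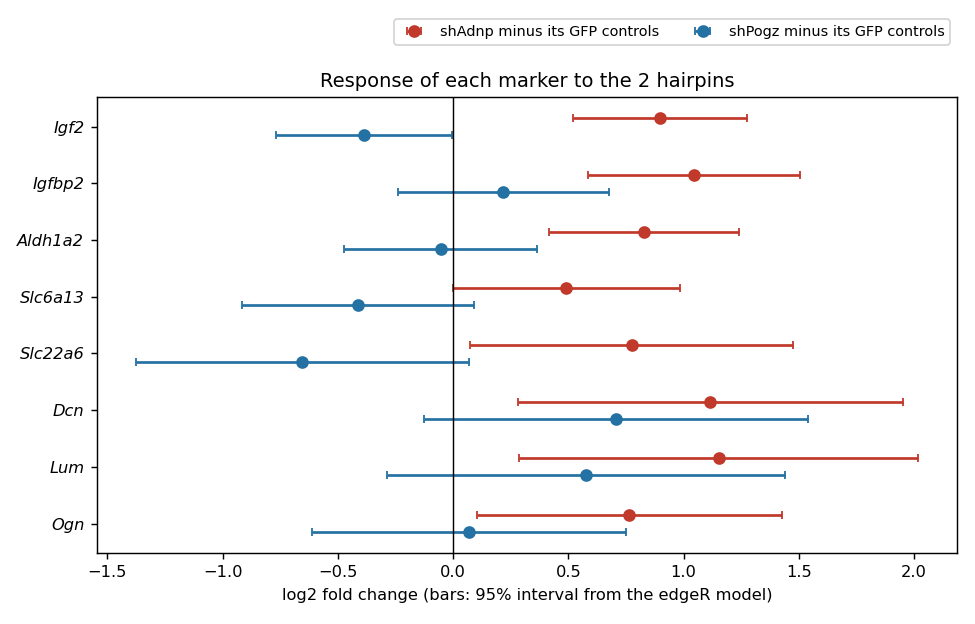
Log2 fold change of each marker in shAdnp (red) and shPogz (blue) against its own GFP controls, with 95% intervals from the edgeR model. The red points run from 0.49 to 1.15, all right of the line at 0, while the blue points run from -0.65 to 0.71.

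The difference between the responses was tested directly. For every marker the shPogz response was below the shAdnp response, from -0.41 for Dcn to -1.43 for Slc22a6 on the log2 scale, with a median of -0.85 against -0.02 over all genes. Each response is relative to its own controls. Mean levels of Dcn and Lum were no lower in shPogz (36.7 and 6.27 CPM) than in shAdnp (33.9 and 5.93 CPM). Their Pogz-set controls stood above the Adnp-set controls by 0.52 and 0.65 on the log2 scale (edgeR adjusted p = 0.751 and 0.717). The difference was above 0 in 46.9% of all genes. By edgeR, 0 of 8 markers and 0% of all genes passed an adjusted p of 0.05, every marker having an adjusted p of 0.978. At an unadjusted p under 0.05, 5 markers had a lower response to shPogz, against 2.41% of all genes. These were Igf2, Igfbp2, Aldh1a2, Slc6a13 and Slc22a6. The count was 3 without replicate 1 of the Adnp-set controls and 4 or 5 without any other single library.

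Igf2 differed by -1.28 (SE 0.24, 95% interval -1.82 to -0.75), and its unadjusted p was the second smallest of all genes. DESeq2 passed 2 genes (0.0115%) in this comparison, and Igf2 was 1 of them (-1.27, adjusted p = 0.0327). The Igf2 difference stayed between -1.53 and -1.04 as each library was left out in turn. Slc22a6 differed by -1.43 (SE 0.45), Slc6a13 by -0.90 (SE 0.31), Aldh1a2 by -0.88 (SE 0.26) and Igfbp2 by -0.83 (SE 0.28). Lum and Dcn had the widest errors of the 8. Dcn differed by -0.41 (SE 0.49, 95% interval -1.58 to 0.76), Lum by -0.58 (SE 0.53) and Ogn by -0.70 (SE 0.42). As each library was left out, the Dcn difference ran from -0.84 (without shPogz replicate 2) to 0.06 (without Pogz-set control replicate 2). That of Lum ran from -1.13 (without shPogz replicate 2) to -0.07 (without shAdnp replicate 1), and that of Ogn from -1.0 (without shAdnp replicate 1) to -0.18 (without Pogz-set control replicate 2). Igf2, Slc6a13 and Slc22a6 were above both controls in both shAdnp libraries and below both in both shPogz libraries, as were 406 of all 17415 genes (2.33%). None of the 8 was above both controls in both hairpin groups, a pattern that 7.12% of all genes showed.

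**Figure D3:**
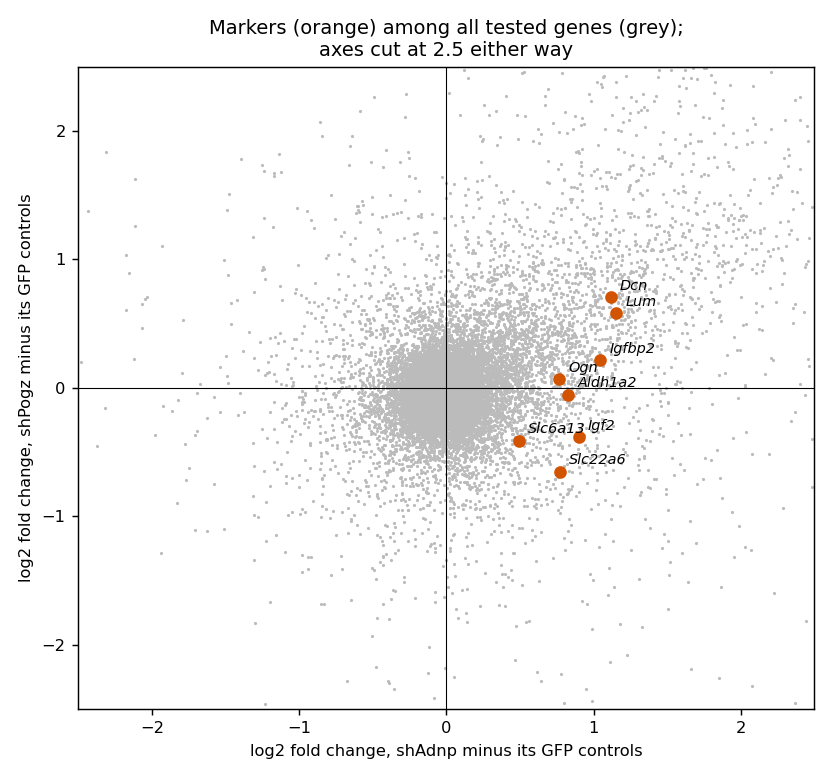
Log2 fold change in shPogz (vertical) against that in shAdnp (horizontal), with all tested genes in grey and the 8 markers in orange, axes ending at 2.5 either way. The markers lie right of 0 on the horizontal axis and split about 0 on the vertical axis, Dcn, Lum and Igfbp2 above it and Slc22a6, Slc6a13 and Igf2 below it, with Aldh1a2 and Ogn near it.

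The pairs of GFP controls, which carry no hairpin, were also set against each other. The log2 fold changes of the Pogz-set controls over the Adnp-set controls ran from -0.53 (Ogn) to 0.65 (Lum), with Dcn at 0.52 and the other 5 between 0.11 and 0.20. By edgeR 0 of 8 markers passed, adjusted p 0.713 to 0.920, against 0.00574% of all genes, and 0 had an unadjusted p under 0.05, against 7.35% of all genes. In 3 markers both Pogz-set controls lay above both Adnp-set controls, and in 1 both lay below, against 21.2% and 22.3% of all genes.

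Averaged over both hairpins within sets, the proteoglycans Dcn (log2 fold change 0.91, SE 0.24, edgeR adjusted p = 0.204) and Lum (0.87, SE 0.27, edgeR adjusted p = 0.248) and the binding protein Igfbp2 (0.63, SE 0.20, edgeR adjusted p = 0.271) stood highest. Ogn was at 0.43, Aldh1a2 at 0.39, Igf2 at 0.27, Slc22a6 at 0.08 and Slc6a13 at 0.05. By edgeR 0 of 8 markers and 0% of all genes passed, and 3 markers had an unadjusted p under 0.05 and were higher, against 8.84% of all genes. That count was 3 to 5 without any single library and 0 without both libraries at the ends of the first scaling axis. DESeq2 passed 697 genes (4%) as higher, with Dcn, Lum and Igfbp2 among them. Without shPogz replicate 1, edgeR itself passed those same 3 markers (Dcn 1.1, adjusted p = 0.0236; Igfbp2 0.82, adjusted p = 0.0301; Lum 1.1, adjusted p = 0.0298) among 556 genes (3.11%).

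The 8 markers did not vary as 1 block. Over the 8 libraries the 28 pairs of markers had Pearson correlations of log2 CPM from -0.25 to 0.92, with a median of 0.57. Igf2, Aldh1a2, Slc6a13 and Slc22a6 varied together, with r from 0.72 to 0.92 over their 6 pairs, though from -0.06 to 0.82 for deviations from the group means. Igfbp2, Dcn and Lum formed a second set, with r from 0.71 to 0.80 over 3 pairs, and from 0.42 to 0.83 for those deviations. Between these sets the 12 pairs ran from -0.25 to 0.73, and the deviations had r from -0.97 to -0.04. These sets were drawn after the values were seen, and the points share libraries, depth and group, so the coefficients only describe the 8 libraries.

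The order of the replicates followed these sets only in part. In shAdnp, Igfbp2, Dcn and Lum were higher in replicate 1 and the other 5 markers in replicate 2. In shPogz, Igf2, Slc6a13 and Slc22a6 were higher in replicate 1 and the other 5, Aldh1a2 among them, in replicate 2. In the control groups Dcn and Lum differed in which replicate was higher. The ratio of Dcn to Slc22a6 counts was 2.35 to 5.95 in 7 libraries and 17.1 in shPogz replicate 2. By contrast Slc6a13 stayed at 1.54 to 2.58 times Slc22a6, and Dcn at 3.63 to 7.77 times Lum, in all 8 libraries. Of Igf2 to Igfbp2, growth factor to binding protein, the ratio was 0.341 in shPogz replicate 2 and 0.566 to 0.853 elsewhere.

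Among 14586 other genes with a mean of at least 1 CPM, those most like the mean profile of the 8 markers over the 8 libraries were Lemd2 (r = 0.98), Plekho1 (0.96), Phkb (0.95), Kctd12 (0.94) and Fcgrt (0.94). For single markers the closest gene was Plcxd1 for Igf2 (0.96), Cd200r1 for Igfbp2 (0.97), Pgm5 for Aldh1a2 (0.96), Nrg2 for Slc6a13 (0.99), 2310022B05Rik for Slc22a6 (0.97) and Scarf2 for Ogn (0.96). Dcn was closest to Lair1 (0.99), a receptor of leukocytes, which read 35.0 and 28.4 CPM in shAdnp against 11.9 and 15.9 in its controls, and 25.5 and 44.0 in shPogz against 16.9 and 24.8. Lum was closest to P2ry13 (1.00), which is in the microglial list used here. The highest of so many coefficients over 8 libraries is high for any gene.

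Other genes of the pathways the markers belong to were taken from lists. In each list below, 0 genes passed an edgeR adjusted p of 0.05 in either hairpin group, and counts are at an unadjusted p under 0.05, to be read against 6.67% of all genes higher and 1.69% lower in shAdnp, 4.05% higher and 2.65% lower in shPogz, and 2.41% lower in the difference between responses. Of 23 other fibroblast genes tested, 15 were higher and 0 lower in shAdnp, at a median of 0.61 on the log2 scale, and 2 were higher in shPogz, at a median of 0.00052. Serpinf1, which encodes a secreted antiangiogenic factor, read 13.2 and 13.6 CPM in shAdnp against 6.25 and 6.96 (log2 fold change 1.02, SE 0.15). Pcolce, an enhancer of procollagen processing, read 10.8 and 12.3 CPM against 5.30 and 7.42 (0.86, SE 0.20). The same genes in shPogz stood at 0.11 and 0.00057, and for this list 9 of 23 had a lower response to shPogz than to shAdnp at an unadjusted p under 0.05.

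In the insulin-like growth factor list, 5 of 18 genes were higher in shAdnp and 2 in shPogz, with none lower. H19, the noncoding RNA gene of the same imprinted region as Igf2 (chr7:142575529-142578143, minus strand), read 2.09 and 2.02 CPM in shAdnp against 0.196 and 0.287, a log2 difference of 3.07 (SE 0.59, edgeR adjusted p = 0.295). Unlike Igf2, H19 was also higher in both shPogz libraries, at 1.45 and 3.82 CPM against 0.424 and 1.08 (1.74, SE 0.55, edgeR adjusted p = 0.667). Igfbp7 and Igfbp5, further binding proteins, were at 0.62 (SE 0.14) and 0.50 (SE 0.12) in shAdnp and at 0.0036 and 0.07 in shPogz.

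In the retinoic acid list 3 of 17 genes were higher in shAdnp and 1 in shPogz. Aldh1a1, a relative of Aldh1a2, read 31.8 and 36.2 CPM in shAdnp against 20.1 and 22.4 (log2 fold change 0.68, SE 0.15). The receptor gene Rarb stood at -0.18 (SE 0.18) in shAdnp and was the 1 higher in shPogz (0.56, SE 0.18).

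Of 10 further solute carriers used as meningeal markers, 4 were higher in shAdnp and 0 in shPogz. Slc6a20a, a transporter of proline, read 16.7 and 18.6 CPM in shAdnp against 11 and 11.3 (0.66, SE 0.17), and 12.6 and 9.77 in shPogz against 11.6 and 15. Slc13a4, a sulfate transporter, was at 0.72 (SE 0.23) in shAdnp and -0.33 (SE 0.24) in shPogz. Of 13 other small leucine-rich proteoglycans, 2 were higher in shAdnp, Bgn (biglycan, 12.3 and 12.9 CPM against 5.85 and 7.13, 0.96, SE 0.21) and Omd (0.93, SE 0.35). In shPogz 1 was lower, Podnl1 (-1.24, SE 0.47), at 0.515 and 0.367 CPM against 1.1 and 1.01.

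Markers of other cells moved in the same comparisons. All 11 microglial genes had an unadjusted p under 0.05 and were higher in shAdnp, at a median of 0.93 on the log2 scale, and 0 of 11 reached that p in shPogz (median 0.31). Their summed level was 813 to 1125 CPM in shAdnp against 462 to 547 in its controls, and 752 to 1082 in shPogz against 696 to 724. As with Igfbp2, Dcn and Lum, replicate 1 was the higher in shAdnp and replicate 2 in shPogz. Macrophages of the brain borders, which share the perivascular space with fibroblasts, had 2 of 9 genes higher, and their sum was 28.3 to 33.3 CPM in shAdnp against 18.3 to 22.3, and 25.6 to 29.9 in shPogz against 24.0 to 28.3. Of 10 astrocyte genes 3 were higher in shAdnp, at a median of 0.05 on the log2 scale. Among them Gfap, a marker of the reactive state, stood at 767 and 393 CPM in shAdnp against 93.7 and 191 in its controls. In shPogz 1 of the 10 astrocyte genes was lower, at a median of -0.17 over the list. The part of any of these in the marker results was not tested.

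Vessel markers had smaller medians in shAdnp than the microglial genes. Of 12 mural cell genes 3 were higher in shAdnp (median log2 fold change 0.34), with sums of 294 to 319 CPM against 245 to 265, and of 10 endothelial genes 2 were higher (median 0.12), with sums of 320 to 393 CPM against 330 to 339. In shPogz 1 of the 12 mural genes was lower (median log2 fold change -0.17), and mural sums were 249 to 271 CPM against 284 to 301. Choroid plexus genes summed to 7.88 to 14.5 CPM over the 8 libraries. Of 13 tested, 1 was higher in shAdnp, the defining transcript Ttr, at 1.46 and 0.180 CPM against 0.0491 and 0.223 (log2 fold change 2.57, SE 1.07). In shPogz Ttr stood at 0.234 and 0.210 CPM against 0.424 and 1.34. In the list of the arachnoid barrier and mesothelium, 5 of 7 genes were tested and 0 had an unadjusted p under 0.05. Their median log2 fold change was 0.70 in shAdnp (0.14 to 0.98) and -0.08 in shPogz (-0.88 to 0.81). In that list Upk3b had 0 counts in all libraries.

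Markers of other brain cells and of neighbouring regions were also measured. Oligodendrocyte genes (0 of 6 at an unadjusted p under 0.05 in either hairpin group) summed to 2458 to 3670 CPM in the Adnp-set controls and 1929 to 3942 in shAdnp. In shPogz they summed to 2851 to 4174 CPM against 2482 to 2787, at a median log2 fold change of 0.42. The cortical neuron list also holds genes of neurons in general, its most abundant being Snap25, so its sum is no check of region. Its genes were high in all libraries, at sums of 4680 to 7210 CPM, the lowest being shPogz replicate 2. In shAdnp 1 of these 10 genes was lower and none higher. In shPogz 0 of the 10 were lower or higher at that p, with a median log2 fold change of -0.20. Astrocyte sums were also lowest in shPogz replicate 2, at 4399 CPM against 5451 to 6272 elsewhere. Striatal genes were highest there, at a sum of 139 CPM against 71.8 to 95.3 in the others, with 2 of 5 higher in shPogz. Of 4 olfactory bulb genes 1 was higher in shAdnp, and 1 was higher and 1 lower in shPogz. Whether any of these had a part in the shPogz values of Dcn, Lum, Igf2, Slc6a13 or Slc22a6 was not tested.

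**Figure D4:**
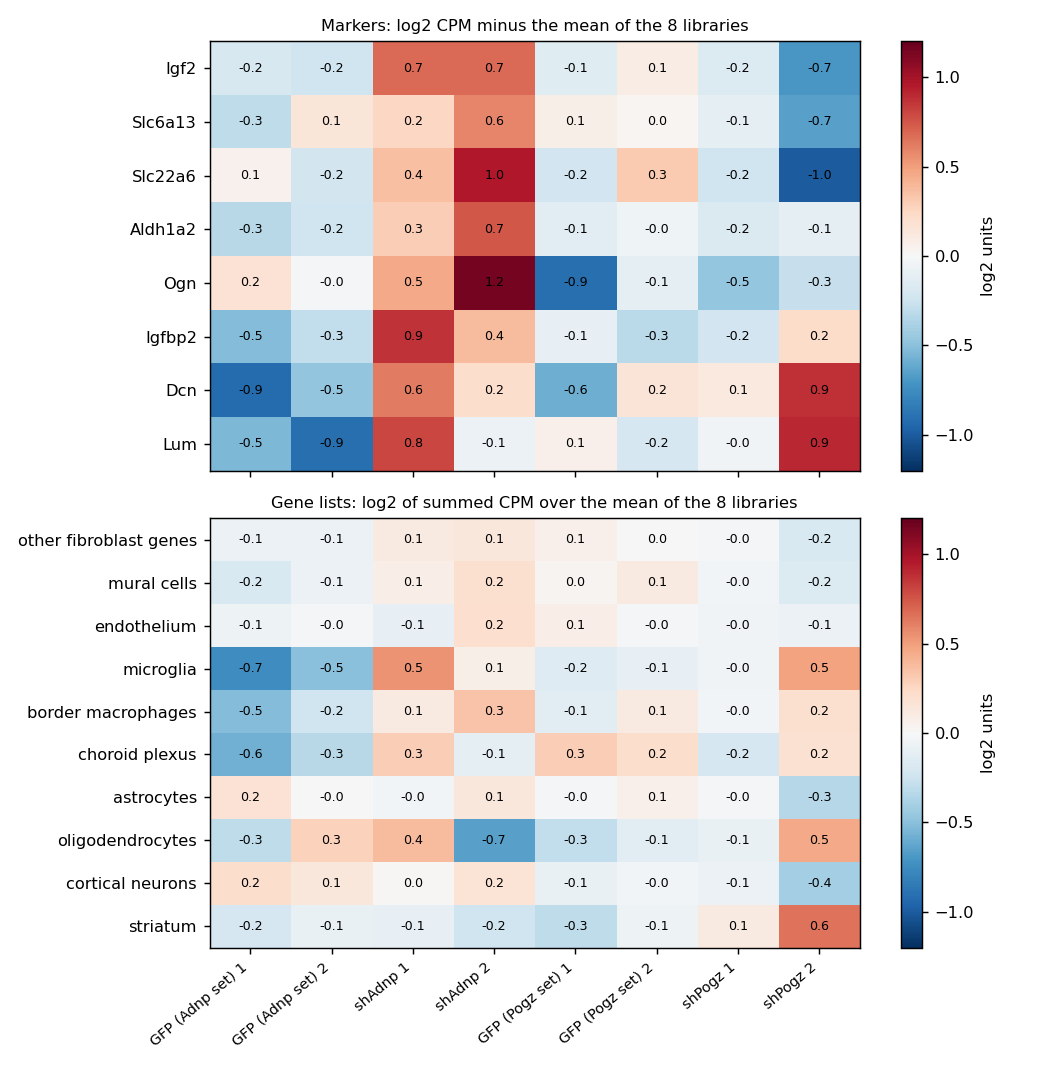
Each library's deviation from the mean of the 8 libraries, in log2 units, for the 8 markers (top) and for the summed CPM of 10 gene lists (bottom), with colours ending at 1.2 either way. Both shAdnp columns are high for most markers and for microglia, and shPogz replicate 2 is low for Igf2, Slc6a13 and Slc22a6 and high for Dcn, Lum, microglia and striatum.

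The row of other fibroblast genes in that map is weighed down by Nov, a gene in that list that took 37.0% to 54.1% of its sum and had a log2 difference of -0.27 in shAdnp. Without Nov, a step added after the values were seen, the other 23 genes summed to 211 and 212 CPM in shAdnp against 139 and 146 in its controls, and 164 and 176 in shPogz against 162 and 165. The 8 markers themselves summed to 191 and 177 CPM in shAdnp against 92.0 and 101, and to 111 and 135 in shPogz against 104 and 119. In both sums the shAdnp libraries were the highest of all, and the shPogz libraries overlapped with their own controls.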

How the data were processed

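Read counts per gene symbol from 8 libraries of mouse prefrontal cortex were used as deposited. Per the labels' protocols, total RNA (1 µg) was depleted of ribosomal RNA for stranded libraries, and the protocols name Cutadapt and TopHat2. The submitters' processing notes name STAR, featureCounts, DESeq2 and mm10. Versions, the strand setting and the handling of multiply mapping reads were not given in the sources used here. Each group has 2 libraries here, where the series text counts 3 knockdown mice and 2 controls. The column header of the library used as shPogz replicate 2 carries the number 3, per the file headers, and its title was followed.

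Identifiers turned into dates (25, with 0.306% to 0.337% of counts) and 2 blank ones were left out. Genes were kept by filterByExpr (minimum count 10), scaled by TMM and fitted in R 4.3.3 with edgeR 4.0.16 by a robust quasi-likelihood model over all 8 libraries, 1 mean a group, which left 4 residual degrees of freedom. The common biological coefficient of variation came to 0.171. Calls were made at 0.05 after Benjamini-Hochberg adjustment across the 17415 genes tested. Per kilobase levels use the exon union of GENCODE M21 on GRCm38, the assembly of mm10. Pairs of libraries differed by a chi-square per degree of freedom of 15.0 to 394, so none was taken as a repeat. Alternatives were DESeq2 1.42.0, limma-voom (limma 3.58.1), other scalings, filters and thresholds, a replicate block and libraries left out.

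Members, lists and tests were chosen with earlier results of these data known. The named genes are all members, up to 3 genes of each list with the smallest p in either hairpin comparison and the most abundant of each cell type list, of which the text gives a part, and the genes most alike by Pearson correlation. Nov is named as the most abundant of its list. Not every gene named by that rule is reported here. The model was checked on simulated data.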

Additional observations from a re-analysis of the deposited data

Results flagged for a closer look

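In 3 markers both shAdnp libraries lay above both of their GFP controls and both shPogz libraries below both of theirs, so each pair of responses pointed in opposite directions. The shPogz response minus the shAdnp response was -1.28 for Igf2, -0.90 for Slc6a13 and -1.43 for Slc22a6 on the log2 scale. The difference itself was tested over all genes, and for each of the 3 the edgeR adjusted p was 0.978. By DESeq2 the adjusted p was 0.0327 for Igf2 and 0.999 for Slc6a13 and Slc22a6. No group has the 4 libraries that a test for an outlying sample needs.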

How the results depend on the processing

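With 2 libraries a group and 4 residual degrees of freedom, small changes are not detectable, and Slc22a6 (103 counts in shPogz replicate 2), Ogn and Lum have the lowest counts in a single library. The sign of every marker held in all 144 values of the alternatives for shAdnp. It changed in 8 of 144 for shPogz (Aldh1a2, Igfbp2 and Ogn), 1 of 136 for the difference between responses (Dcn), 3 of 136 for the GFP controls and 5 of 136 for the average of both hairpins. DESeq2 passed 417 genes (413 higher) and 4 markers in shAdnp, 101 genes and 0 markers in shPogz, 2 genes and 1 marker in the difference, 73 genes (66 higher) in the GFP controls, and 711 genes (697 higher) and 3 markers in the average. Against these stand 0, 0, 0, 1 and 0 genes by edgeR. Without a low-count filter, and likewise at an adjusted p of 0.10, the GFP controls gave 6 genes.

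The replicate numbers were not taken to pair the samples: deviations of same-numbered libraries had r = -0.0085 in the Adnp set and 0.05 in the Pogz set, and -0.08 to 0.31 over all 6 pairs of groups. With a replicate block 144 genes passed in shAdnp, 26 in shPogz, 18 in the GFP controls and 455 in the average, with 0 markers in any.

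As each library was left out, 0 to 8 genes passed in shAdnp, with a marker median of 0.75 to 0.93. In shPogz it was 0 to 153 genes and a median of -0.15 to 0.11, in the difference 0 to 4 genes and -1.03 to -0.69, and in the GFP controls 0 to 6 genes and 0.10 to 0.28. In the average it was 0 to 556 genes, a median of 0.23 to 0.59 and 0 to 3 markers. Without both libraries at the ends of the first scaling axis, an alternative chosen after seeing the data, 8 genes passed in shPogz (marker median -0.059), 3 in the GFP controls and 2 in the average, and the median of the difference was -0.93. A lone library left in a group is assumed to vary like the others. The cause of these changes was not tested.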
